A study of Macaca mulatta with 6 samples.

Results

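The genes described here are the 59 amino acid transporter genes of the SLC1A, SLC3A, SLC6A, SLC7A, SLC36A, SLC38A and SLC43A families in rhesus monkey induced pluripotent stem cells (iPSCs). They were taken by symbol, as every gene row named with 1 of these 7 prefixes and a number, and make up 59 of 30246 rows. The SLC6A prefix also covers carriers of creatine, taurine, monoamines and GABA, so the set is wider than amino acids alone. RNA sequencing was done on 6 libraries, each from 1 line, in 3 groups of 2. The female naive and male naive lines were grown in KnockOut DMEM with 15% KSR and N2 supplement. That medium also held 4 ng/ml bFGF, 10 ng/ml human LIF, the GSK3 inhibitor CHIR99021 at 3 µM and the MEK inhibitor PD0325901 at 0.5 µM. The p38 inhibitor SB203580 and the JNK inhibitor SP600125 were each present at 10 µM, L-glutamine at 1 mM, and NEAA and 2-ME at 0.1 mM each. The male primed lines were grown in hESM, which was D/F12 with 20% KSR and bFGF at a dose not given in the sources used here. Amino acid supplements of hESM are not given there either, so pluripotent state and medium composition cannot be told apart in any naive against primed comparison. All lines were freed of feeder cells and colonies were collected. Donors, passage and clonal origin of the lines are not given, and sex cannot be told apart from line among the naive cells. Each p-value measures only how much these lines spread.

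Amino acid carriers differ in what they move and how. Sodium-coupled carriers such as those of the SLC38 family concentrate small neutral amino acids in the cell, and exchangers such as SLC1A5 and the SLC7A5 complex then trade these for other amino acids. The light chains of the SLC7 family reach the plasma membrane only when bound to a heavy chain of the SLC3 family, and leucine brought in by SLC7A5 with SLC3A2 is a known input to mTORC1. Pluripotent stem cells are known for a high demand for amino acids, with threonine in mouse cells and methionine in human cells as examples.

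Levels are the deposited FPKM (fragments scaled to transcript length and to the mapped fragments of the library), which allow levels to be compared between genes. The number of fragments implied by the deposited bounds was 8294782 and 10013491 in the female naive libraries, 1754857 and 1478692 in the male naive libraries, and 9970137 and 7607125 in the primed libraries, a range of 6.77 times. The male naive libraries were the shallowest. Of 9 tested markers of pluripotent cells, POU5F1, DPPA4, TDGF1 and DNMT3B were called higher in naive than in primed lines (limma, adjusted p under 0.05). Over all rows 6.72% were called higher. Without a call, NANOG (log2 difference 1.75), TACSTD1 (1.73) and LIN28B (0.06) were above 0, and SOX2 (-0.34) and SALL4 (-0.20) below. The NANOG row covers only positions 950 to 1259 of the sequence 1099213961847 in the coordinates as deposited. It had 5.02 and 29.5 FPKM in female naive, 0 and 1.58 FPKM in male naive, and 0.917 and 0 FPKM in primed lines. Its difference thus rested mainly on female naive line 2. The row taken as LIN28A, at chr10:44907146-44907906 in the coordinates as deposited, was listed at 0 in all 6 libraries. Whether this row and the NANOG row cover the whole genes was not tested. These are bulk libraries, so fewer cells of a type and less RNA per cell cannot be told apart.

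Of the 59 genes, 32 passed the filter of at least 1 FPKM in at least 2 libraries and were tested. Between 32 and 34 genes reached 1 FPKM in each naive library, against 28 and 30 in the primed libraries. The summed FPKM of all 59 genes was 742.9 and 892.0 in the female naive lines, 837.1 and 832.9 in the male naive lines, and 711.8 and 521.6 in the primed lines. All 4 naive sums lay above both primed sums. The upper quartile of all tested rows was 28.26 and 27.93 FPKM in female naive lines and 30.63 and 30.77 FPKM in male naive lines. In primed lines it was 27.53 and 27.1 FPKM, also below all 4 naive lines. Medians of those rows were 10.83 and 10.55 (female naive), 11.98 and 11.84 (male naive) and 11.3 and 11.19 FPKM (primed). A count of all rows at 1 FPKM in each library is not given here. The 5 most abundant genes of each library held 47.6% to 56.6% of its sum. Averaged over the 6 libraries, 18 genes reached 10 FPKM, led by SLC3A2, SLC7A5, SLC38A1, SLC38A2 and SLC6A8.

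**Figure D1:**
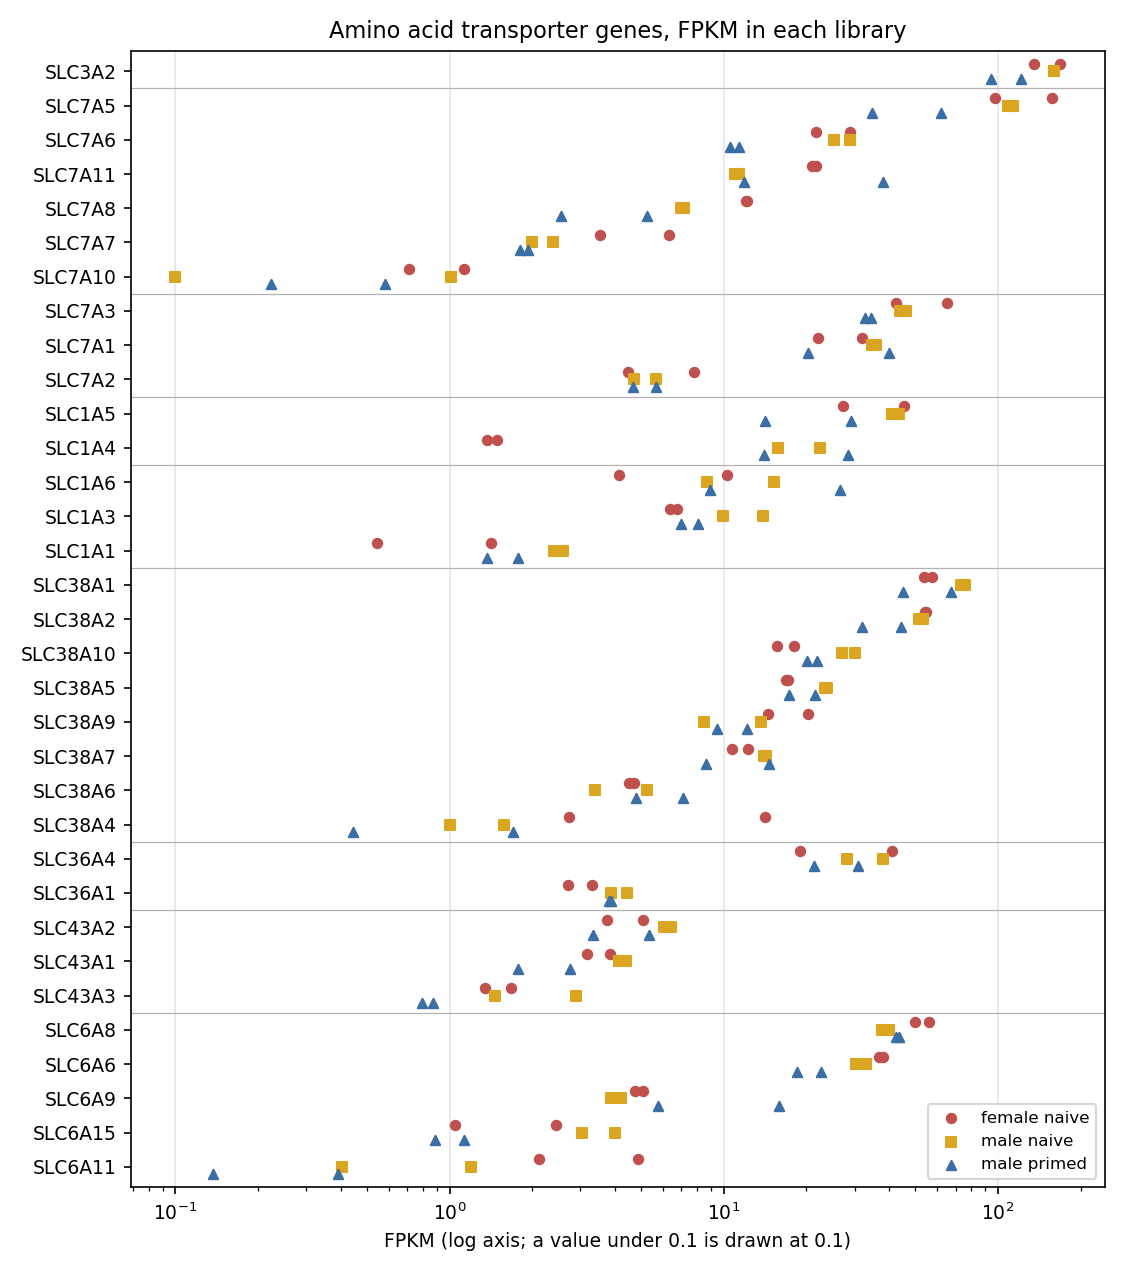
FPKM (log axis) of 33 amino acid transporter genes in each library, with female naive lines as circles, male naive lines as squares and male primed lines as triangles; lines separate heavy chain, light chains, cationic carriers, neutral exchangers, glutamate carriers and the SLC38, SLC36, SLC43 and SLC6 families. SLC7A5 and SLC7A6 show all 4 naive lines above both primed lines, and SLC1A4 shows the female naive lines at 1.49 and 1.37 FPKM, apart from the other 4 lines; SLC38A1 is plotted but was not tested.

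Naive against primed, 5 of the 32 tested genes passed an adjusted p of 0.05 (limma on log2(FPKM + 1), Benjamini-Hochberg over 13685 rows). SLC7A5, SLC7A6, SLC7A8 and SLC6A6 were higher in naive lines, and SLC1A4 was lower on average, with a low level in the female naive lines alone. The 5 calls are 15.6% of the tested genes, near the 11.3% of all tested rows that were called. In each direction, 12.5% of the genes against 6.72% of all rows were called higher, and 3.12% against 4.59% were called lower. At an unadjusted p under 0.05 the shares were 40.6% of the genes and 30.9% of all rows. Over all rows 920 were higher and 628 lower with FPKM as deposited, 693 and 878 after upper-quartile scaling, and 741 and 739 after quantile normalization. The median log2 difference of the 32 genes was 0.24, beside 0.03 for all rows, and 26 of 32 genes (81.2%) were above 0, beside 53.1% of all rows. In 11 of 32 genes (34.4%) all 4 naive lines lay above both primed lines, beside 18.9% of all rows, and in SLC6A9 alone (3.12%) all 4 lay below, beside 15.9% of rows. Among the 11, SLC6A11 and SLC43A3 were under 1 FPKM in both primed lines, so they passed the filter through naive lines alone. All rows went through the same filter.

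**Figure D2:**
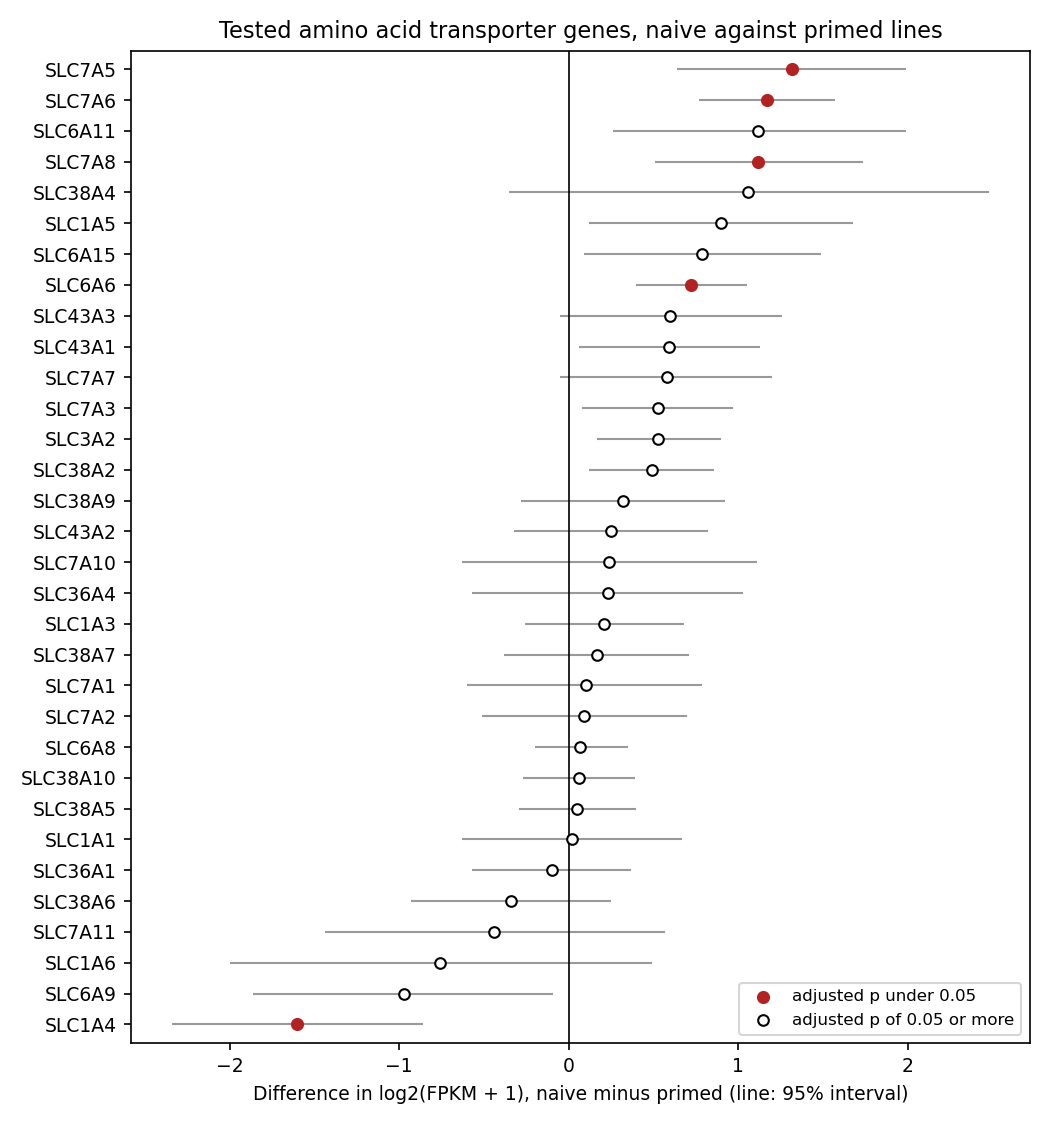
Difference in log2(FPKM + 1), naive minus primed, of the 32 tested genes, with its 95% interval from limma as a line and filled points for an adjusted p under 0.05. SLC7A5 (1.32), SLC7A6 (1.17), SLC7A8 (1.12) and SLC6A6 (0.72) are the filled points above 0, and SLC1A4 (-1.60) is the filled point below 0.

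Of 6 tested light chains, 3 were called higher in naive lines and none lower, the most of any group, beside 6.72% of all rows called higher. Their median log2 difference was 0.85, beside 0.03 for all rows. The groups held only 1 to 7 tested genes each, and whether they differ in calls was not tested. SLC7A5 (LAT1), the exchanger that imports leucine and other large neutral amino acids, had 97.6 and 157 FPKM in female naive lines, 113 and 109 FPKM in male naive lines, and 62.0 and 34.7 FPKM in primed lines. Every naive line was above both primed lines. Its means were 127 ± 42.1 FPKM (female naive), 111 ± 2.73 FPKM (male naive) and 48.4 ± 19.3 FPKM (primed; SD, n = 2 each), and naive exceeded primed 2.47-fold. The log2 difference was 1.32 (SE 0.28, adjusted p = 0.0357). The gene lies at chr20:85988988-86020229 in the coordinates of the files, whose build is not given in the sources used here.

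SLC7A6 (y+LAT2), which trades cationic for neutral amino acids, had 21.7 and 28.8 FPKM in female naive lines, 25.2 and 28.9 FPKM in male naive lines, and 11.4 and 10.5 FPKM in primed lines. No naive line came near the primed range, and the fold was 2.38. Its log2 difference was 1.17 (SE 0.16, adjusted p = 0.0146), and it lies at chr20:66637830-66647797.

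SLC7A8 (LAT2), a second carrier of neutral amino acids, had 12.1 and 12 FPKM in female naive lines, 7.13 and 6.99 FPKM in male naive lines, and 2.55 and 5.24 FPKM in primed lines. The 3 groups did not overlap. The log2 difference, naive minus primed, was 1.12 (SE 0.25, adjusted p = 0.0428). It was 0.72 (adjusted p = 0.104, in a range of 0.0239 to 0.124 over all alternatives) without primed line 1, where the gene was lowest. SLC7A8 lies at chr7:85955814-86016499, with SLC7A7 335.0 kb before its start.

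SLC7A7 (y+LAT1), the other light chain of the y+L system, had 3.53 and 6.30 FPKM in female naive lines, 2.00 and 2.38 FPKM in male naive lines, and 1.93 and 1.81 FPKM in primed lines. Its log2 difference was 0.58 (95% interval -0.05 to 1.20, adjusted p = 0.192), although the naive and primed ranges did not overlap. SLC7A10, an exchanger of small neutral amino acids, stayed between 0 and 1.13 FPKM.

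SLC7A11 (xCT), which imports cystine in exchange for glutamate, did not follow the other light chains. It had 21.7 and 21.0 FPKM in female naive lines, 11.0 and 11.4 FPKM in male naive lines, and 38.1 and 11.8 FPKM in primed lines. Primed line 1 was the highest of all 6 and primed line 2 lay beside the male naive lines. The log2 difference, naive minus primed, was -0.44 (95% interval -1.44 to 0.57, adjusted p = 0.52), and its sign rested on primed line 1, being 0.37 without it. Without primed line 2 the gene was called lower in naive lines (log2 difference -1.24, adjusted p = 0.0216, the smallest of a range that reached 0.999).

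SLC3A2 (CD98), the heavy chain of these exchangers, was the most abundant gene of the set. It had 135 and 169 FPKM in female naive lines, 160 and 160 FPKM in male naive lines, and 121 and 94.5 FPKM in primed lines. Both primed lines were below every naive line, yet the log2 difference of 0.53 (SE 0.15, adjusted p = 0.0705) did not pass. SLC3A1, the heavy chain of kidney and gut, was at or under 0.073 FPKM in every library. The summed light chains came to 157.8 and 226.1 FPKM in female naive lines, 159.6 and 159.6 FPKM in male naive lines, and 116.5 and 65.2 FPKM in primed lines. As a ratio to SLC3A2 this was 1.171 and 1.335 for female naive, 0.997 and 0.996 for male naive, and 0.96 and 0.69 for primed lines, and the 3 groups did not overlap.

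SLC7A5 made up 61.8% and 69.5% of the light chain sum in female naive lines, 71.0% and 68.5% in male naive lines, and 53.2% and 53.2% in primed lines. SLC7A11 made up 13.7% and 9.3% in female naive lines, 6.9% and 7.2% in male naive lines, and 32.7% and 18.1% in primed lines. The SLC7A11 share was thus highest in the primed lines and the SLC7A5 share lowest there, as a description with no test. Both are shares of 1 sum, which was itself lowest in the primed lines. In level, SLC7A11 was highest in primed line 1 alone. Primed line 2, at 11.8 FPKM, lay beside the male naive lines and below the female naive lines.

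**Figure D3:**
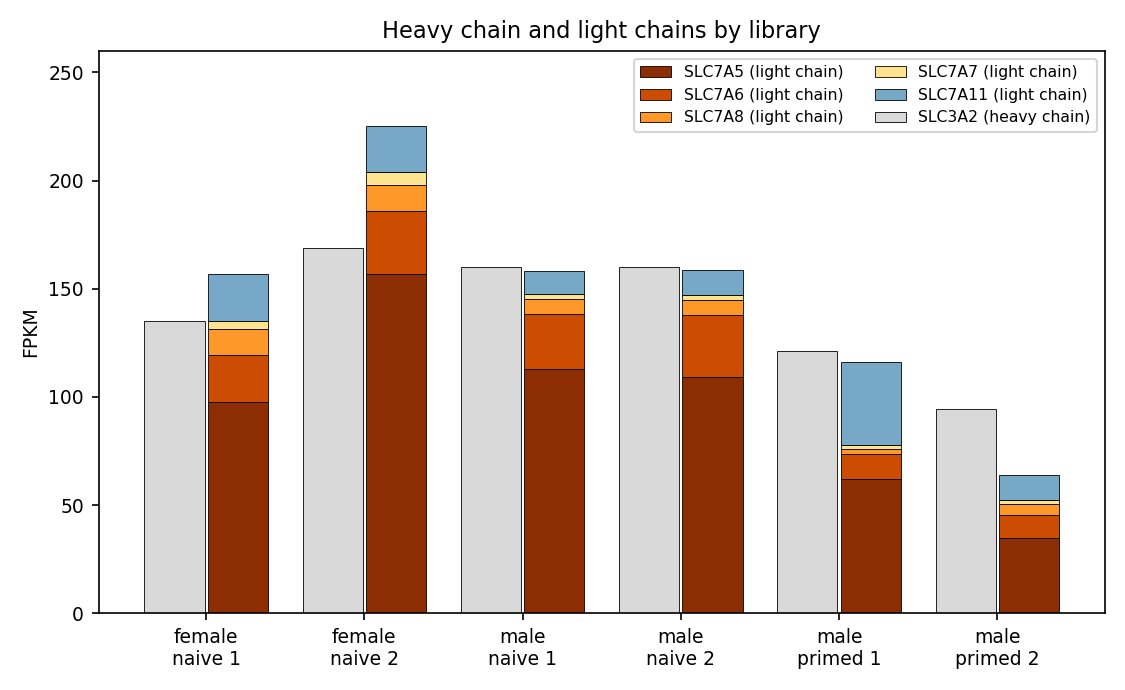
FPKM of the heavy chain SLC3A2 (grey bars) and of 5 light chains (stacked bars) in each library, ordered female naive, male naive and male primed; SLC7A10 and the light chains listed near 0 are not drawn. SLC7A5 fills most of each naive stack, and the SLC7A11 section is largest in primed line 1, at 38.1 FPKM.

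Among the cationic amino acid carriers, which bring in arginine and lysine, 0 of 3 tested genes were called. SLC7A3 (CAT3) was the most abundant, with 42.6 and 65.4 FPKM in female naive lines, 46.1 and 43.9 FPKM in male naive lines, and 32.6 and 34.5 FPKM in primed lines. Naive and primed ranges did not overlap, and the log2 difference was 0.53 (95% interval 0.08 to 0.97, adjusted p = 0.114). SLC7A1 (CAT1), the widely expressed member, had 22.1 and 32.0 FPKM in female naive lines, 35.9 and 34.7 FPKM in male naive lines, and 40.0 and 20.3 FPKM in primed lines. The primed lines spanned the whole naive range, and the log2 difference was 0.10 (95% interval -0.60 to 0.79), with a sign that turned under upper-quartile scaling and quantile normalization. SLC7A2 (CAT2) lay between 4.49 and 7.77 FPKM in the 6 libraries.

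SLC1A4 (ASCT1), an exchanger of alanine, serine and cysteine, showed the largest difference of the 32 tested genes between the naive groups. It had 1.49 and 1.37 FPKM in female naive lines, 15.8 and 22.4 FPKM in male naive lines, and 28.4 and 14.0 FPKM in primed lines. Both female naive lines lay far below the other 4 lines, and male naive and primed lines overlapped. Its means were 1.43 ± 0.0802 FPKM (female naive), 19.1 ± 4.64 FPKM (male naive) and 21.2 ± 10.2 FPKM (primed; SD, n = 2 each). The deposited bounds put the authors' values at 0.891 to 2.08 and 0.853 to 1.89 FPKM in female naive lines, and at 11.6 to 20.0 and 16.9 to 27.8 FPKM in male naive lines. About 25 and 28 fragments stood behind the female naive values, 57 and 68 behind the male naive values and 580 and 224 behind the primed values. The low female naive level was thus measured in libraries deeper than the male naive ones.

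Female against male naive, SLC1A4 differed by -3.03 on the log2 scale (SE 0.35, adjusted p = 0.0114), the single call among the 32 genes. Male naive against primed, it differed by -0.09 (95% interval -0.94 to 0.76, adjusted p = 0.901). The naive against primed difference of -1.60 (SE 0.30, adjusted p = 0.0285) therefore averages a low female naive level and a male naive level that overlapped the primed lines. With both male naive libraries left out it was -3.12 (adjusted p = 0.0284, in a range of 0.019 to 0.406 over all alternatives). SLC1A4 lies at chr13:65215245-65235762 and no other row of the files overlaps it.

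SLC1A5 (ASCT2), the closely related exchanger that is a main entry route for glutamine, had 27.3 and 45.5 FPKM in female naive lines, 41.2 and 43.7 FPKM in male naive lines, and 29.1 and 14.1 FPKM in primed lines. Female naive line 1 and primed line 1 overlapped. The log2 difference, naive minus primed, was 0.90 (95% interval 0.12 to 1.68, adjusted p = 0.12), reaching 1.40 without primed line 1 and 0.40 without primed line 2. Female minus male naive it was -0.26 (95% interval -1.16 to 0.64). The end of the locus overlaps an unnamed row at 28.79 FPKM on average, and how fragments were split between the rows was not tested.

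The sodium-dependent glutamate carriers were modest in level and none of the 3 tested was called. SLC1A3 (EAAT1, the astrocyte carrier of brain) had 6.36 and 6.77 FPKM in female naive lines, 13.9 and 9.90 FPKM in male naive lines, and 6.98 and 8.04 FPKM in primed lines. The male naive lines were highest, with a log2 difference, female minus male naive, of -0.75 (adjusted p = 0.129). SLC1A6 (EAAT4, known from Purkinje cells) had 4.15 and 10.3 FPKM in female naive lines, 15.3 and 8.67 FPKM in male naive lines, and 26.5 and 8.91 FPKM in primed lines. The 3 groups overlapped, with primed line 1 highest. SLC1A1 (EAAT3) stayed between 0.542 and 2.59 FPKM, and SLC1A2 (EAAT2) under 1 FPKM.

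Of the SLC38 family, 7 of 11 members were tested and none was called, with a median log2 difference of 0.17. SLC38A2 (SNAT2), the carrier that cells are known to induce when amino acids run short, had 54.0 and 54.5 FPKM in female naive lines, 51.4 and 53.3 FPKM in male naive lines, and 44.3 and 32.0 FPKM in primed lines. The 4 naive lines lay between 51.4 and 54.5 FPKM, above both primed lines, with a log2 difference of 0.49 (95% interval 0.12 to 0.86, adjusted p = 0.0892), and 0.26 without primed line 2. SLC38A1 (SNAT1), which loads glutamine, had 53.7 and 57.5 FPKM in female naive lines, 73.5 and 76.1 FPKM in male naive lines, and 67.3 and 44.9 FPKM in primed lines. The value of primed line 1 carries a failed status in the deposited table, so the gene was not tested; with such rows kept, its naive minus primed difference was 0.23 (adjusted p = 0.427).

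SLC38A10, a ubiquitous member, had 18 and 15.6 FPKM in female naive lines, 30.0 and 26.9 FPKM in male naive lines, and 20.1 and 21.9 FPKM in primed lines. The female naive lines were lowest and the male naive lines highest without overlap, with a log2 difference, female minus male naive, of -0.73 (SE 0.16, adjusted p = 0.0673). SLC38A9, the lysosomal arginine sensor upstream of mTORC1, ranged from 8.44 to 20.2 FPKM and SLC38A7, a lysosomal glutamine exporter, from 8.58 to 14.6 FPKM. SLC38A5 (SNAT5) ranged from 16.9 to 23.7 FPKM and SLC38A6 from 3.39 to 7.08 FPKM. SLC38A4 (SNAT4), an imprinted gene in mouse, had 2.72 and 14.1 FPKM in female naive lines, 1.00 and 1.58 FPKM in male naive lines, and 0.445 and 1.70 FPKM in primed lines. Female naive line 2 stood alone, and the female minus male naive difference of 1.72 had a 95% interval of 0.08 to 3.36 (adjusted p = 0.211) and was 0.71 without that line. SLC38A1, SLC38A2 and SLC38A4 are neighbours on chromosome 11, 80.9 kb and 378.9 kb apart.

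In the proton-coupled SLC36 family, SLC36A4, a carrier of proline and tryptophan, had 41.2 and 19.0 FPKM in female naive lines, 28.2 and 38 FPKM in male naive lines, and 21.4 and 30.8 FPKM in primed lines. The groups overlapped throughout, and the log2 difference was 0.23 (95% interval -0.57 to 1.03). Few fragments stood behind SLC36A4 for its FPKM, 17 and 19 in male naive libraries and 65 to 116 in the others. At a similar mean FPKM, SLC6A6 rested on 131.5 to 1197.6. The rank of SLC36A4 among the carriers is therefore less sure. SLC36A1, found on lysosomes, ranged from 2.70 to 4.42 FPKM. The facilitators SLC43A1 (LAT3) and SLC43A2 (LAT4) move branched-chain amino acids and phenylalanine without a heavy chain. SLC43A1 had 3.17 and 3.84 FPKM in female naive lines, 4.16 and 4.38 FPKM in male naive lines, and 2.74 and 1.78 FPKM in primed lines. Primed lines were lowest, with a log2 difference of 0.59 (95% interval 0.06 to 1.13, adjusted p = 0.13), and 0.38 without primed line 2. SLC43A2 had 5.06 and 3.74 FPKM in female naive lines, 6.07 and 6.40 FPKM in male naive lines, and 3.34 and 5.34 FPKM in primed lines. Female naive and primed lines overlapped, and the log2 difference was 0.25 (95% interval -0.32 to 0.82). SLC43A3, a purine nucleobase carrier by later work, lay between 0.791 and 2.88 FPKM with the primed lines lowest.

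In the SLC6 family 5 of 19 members were tested and 1 was called. SLC6A6 (TauT), the sodium- and chloride-coupled taurine carrier, had 36.9 and 38 FPKM in female naive lines, 33.0 and 30.3 FPKM in male naive lines, and 22.6 and 18.5 FPKM in primed lines. The order female naive, male naive, primed held with no overlap. Its means were 37.4 ± 0.773 FPKM (female naive), 31.7 ± 1.93 FPKM (male naive) and 20.6 ± 2.93 FPKM (primed; SD, n = 2 each). The log2 difference, naive minus primed, was 0.72 (SE 0.13, adjusted p = 0.0274), and the gene lies at chr11:84087094-84169963.

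SLC6A8 (CRTR), the creatine carrier on chromosome X, had 49.7 and 55.8 FPKM in female naive lines, 40.1 and 37.7 FPKM in male naive lines, and 43.7 and 42.4 FPKM in primed lines. Female naive lines were highest, with a female minus male naive difference of 0.43 (95% interval 0.11 to 0.74, adjusted p = 0.136). The other tested genes on chromosome X, SLC7A3 and SLC38A5, differed there by 0.23 and -0.44, neither called. SLC6A9 (GLYT1), the glycine carrier, was the single gene with every naive line below both primed lines, at 4.73 and 5.06 FPKM in female naive lines, 3.88 and 4.22 FPKM in male naive lines, and 15.9 and 5.76 FPKM in primed lines. Most of that gap came from primed line 1. The log2 difference was -0.97 (95% interval -1.86 to -0.09, adjusted p = 0.133), -0.31 (adjusted p = 0.428) without primed line 1 and -1.63 (adjusted p = 0.0246) without primed line 2, the highest and lowest adjusted p over all alternatives. SLC6A15, a brain carrier of branched-chain amino acids and proline, ranged from 1.05 to 4.01 FPKM in naive lines and stood at 0.881 and 1.13 FPKM in primed lines. SLC6A11 (GAT3), a GABA carrier, had 2.12 and 4.86 FPKM in female naive lines, 0.404 and 1.20 FPKM in male naive lines, and 0.393 and 0.137 FPKM in primed lines. Only 2 and 5 fragments stood behind its male naive values and 11 and 3 behind its primed values.

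Within males, naive against primed, 1 of the 32 genes was called (3.12%, beside 5.39% of all rows, of which 3.97% were higher and 1.42% lower). That gene was SLC7A6, 2.46-fold higher in male naive lines, with a log2 difference of 1.23 (SE 0.19, adjusted p = 0.0246). SLC7A5 differed by 1.24 (SE 0.32, adjusted p = 0.0775), SLC6A6 by 0.60 (SE 0.16, adjusted p = 0.0765) and SLC7A8 by 0.78 (SE 0.29, adjusted p = 0.167). Both male naive lines lay above both primed lines in 19 of 32 genes (59.4%, beside 34.8% of all rows) and below them in SLC6A8, SLC7A11 and SLC6A9 (9.38%, beside 21.6%). The 19 again include SLC6A11 and SLC43A3, which passed the filter through naive lines alone. The median log2 difference was 0.38 for the 32 genes and 0.09 for all rows. Over all rows 543 were called higher and 195 lower with FPKM as deposited, 391 and 357 after upper-quartile scaling, 399 and 294 after quantile normalization, and 418 and 255 after median-of-ratios scaling. This comparison shares its primed lines with the one above, so the values of both rest on the same 2 libraries.

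Between the naive groups, 1 of 32 genes (SLC1A4) was called, which is 3.12% beside 3.31% of all rows. Both female naive lines were above both male naive lines in 10 genes (31.2%, beside 19.4% of all rows) and below them in 11 (34.4%, beside 37.6%). The taurine, creatine and cystine carriers SLC6A6, SLC6A8 and SLC7A11 were among the 10, and the glutamate carriers SLC1A1 and SLC1A3 among the 11. SLC7A11 differed by 0.87 on the log2 scale, with 95% limits of -0.29 and 2.03 and an adjusted p of 0.355. In a fit of the naive lines alone, without the wide pair of primed values, the same difference had an adjusted p of 0.0492, in a range of 0.044 to 0.651 over all alternatives. The heavy chain SLC3A2 differed by -0.08 (95% interval -0.50 to 0.34), SLC7A5 by 0.15 (95% interval -0.63 to 0.93) and SLC7A6 by -0.11 (95% interval -0.57 to 0.36), and the sign of SLC3A2 and SLC7A6 turned under upper-quartile scaling. Over all rows 104 were called higher and 349 lower as deposited, 118 and 223 after quantile normalization, and 114 and 219 after median-of-ratios scaling.

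**Figure D4:**
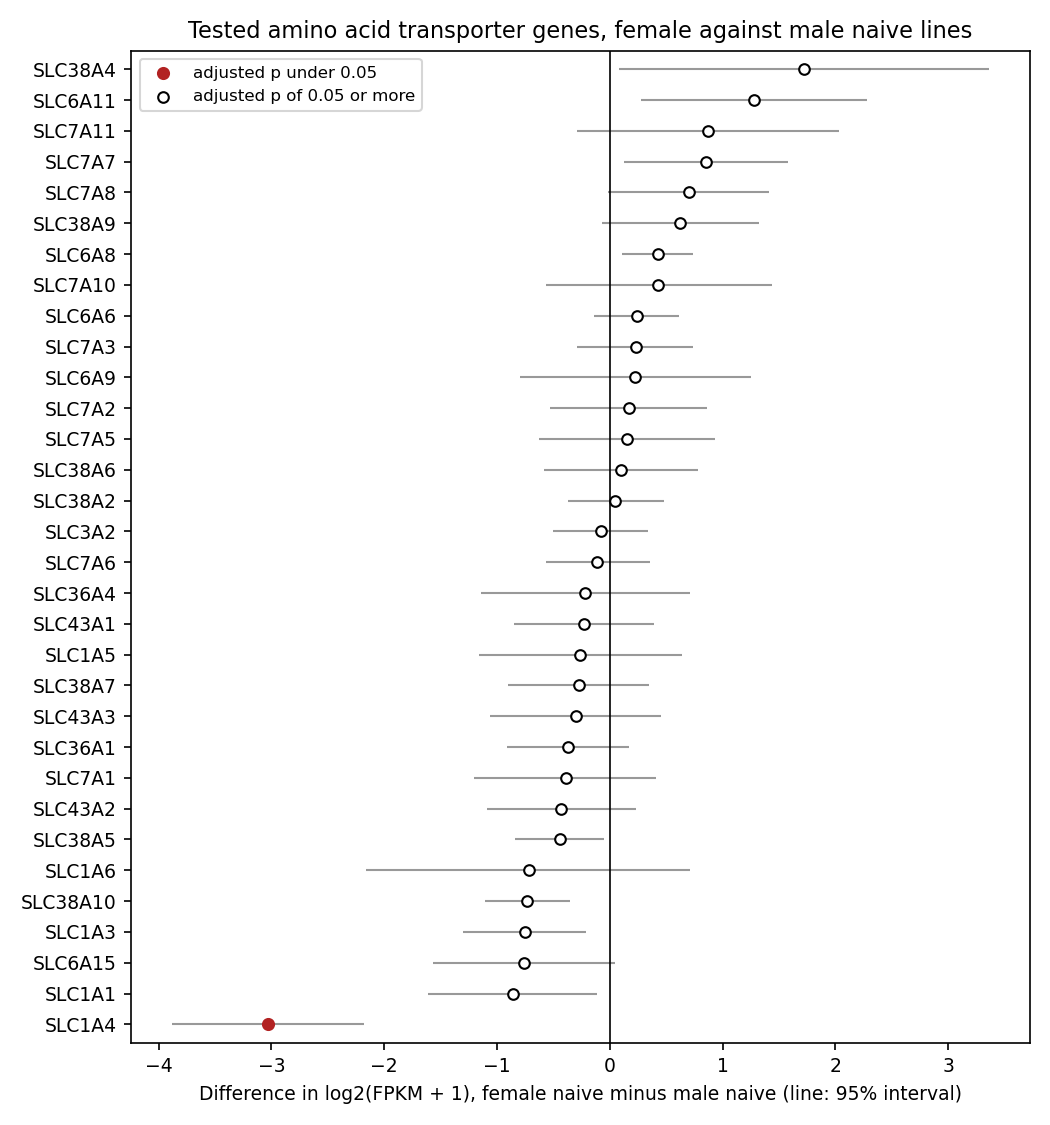
Difference in log2(FPKM + 1), female naive minus male naive, of the 32 tested genes, with its 95% interval from limma as a line and a filled point for an adjusted p under 0.05. SLC1A4, at -3.03, is the single filled point, and SLC38A4, at 1.72, has the widest interval reaching above 0.

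The 2 primed lines were less alike in these genes than the 2 male naive lines. Line 1 minus line 2, the median absolute log2 difference over the 32 genes was 0.32 for female naive, 0.13 for male naive and 0.36 for primed lines, beside 0.23, 0.18 and 0.29 over all rows. In primed cells 21 of 32 genes were higher in line 1, where 48.7% of all rows were. Differences of more than 1 on the log2 scale were seen for SLC36A4, SLC1A6 and SLC38A4 between the female naive lines, SLC7A10 between the male naive lines, and SLC7A11, SLC1A6 and SLC6A9 between the primed lines. Markers of fibroblasts and feeder cells differed between the same lines. Without VIM, their 10 measured genes summed to 211 and 337 FPKM in female naive lines, 118 and 89.9 FPKM in male naive lines, and 26.3 and 241 FPKM in primed lines. DCN and FAP were listed at 0 in both male naive lines, and none of the 10 was at 0 in either primed line. The male naive libraries were the shallowest, and only 4.7 and 0.8 fragments stood behind DCN and FAP in primed line 1. Absence and low depth therefore cannot be told apart for these zeros. COL1A1 was at 9.24 FPKM in primed line 1 and 135 FPKM in primed line 2. Their part in the spread of the transporter genes was not tested. Of 11 measured fibroblast and feeder markers, 8 were tested and VIM alone was called. It was lower in naive than in primed lines, beside 4.59% of all rows. VIM was also lower in female than in male naive lines, beside 2.55% of all rows. Of 7 tested neural markers MAP2 and NCAM1 were called lower in naive than in primed lines, beside the same 4.59%. TUBB3 and MAP2 were called lower in female than in male naive lines, beside the same 2.55%. Median log2 differences of the 7 markers were -0.92 and -0.41, in that order. Within males NCAM1 was the single call, lower in naive lines, beside 1.42% of all rows called lower. The sums of the 9 measured neural markers were 187 and 280 FPKM in female naive lines, 305 and 277 FPKM in male naive lines, and 266 and 247 FPKM in primed lines. Most of each sum was NES, which was not tested, so the sums mainly follow that gene. NES had 166 and 263 FPKM in female naive lines, 244 and 229 FPKM in male naive lines, and 165 and 170 FPKM in primed lines. The part of the neural markers in the SLC6A9 and SLC1A4 differences was not tested.

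Each of the 5 naive against primed calls was lost in some of the fits with 1 library left out, and which library it was mattered. SLC7A5 and SLC6A6 missed the threshold without any 1 of the 6 libraries, SLC7A8 and SLC1A4 without any 1 but primed line 2, and SLC7A6 without male naive line 1, male naive line 2, female naive line 2 or primed line 1. Directions held in every case, with log2 differences of 0.91 to 1.73 for SLC7A5, 0.58 to 0.86 for SLC6A6 and 1.07 to 1.27 for SLC7A6. Within males, the SLC7A6 call was lost without any 1 of the 4 male libraries, at 1.13 to 1.32 and adjusted p of 0.0645 to 0.152. The SLC1A4 difference between female and male naive lines missed the threshold without any 1 of its own 4 libraries, at -2.79 to -3.27 and adjusted p of 0.0702 to 0.115.

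The other 26 genes left untested for their level were 22 that stayed under 1 FPKM in every library and 4 that reached it in 1 library alone (SLC6A3, SLC6A16, SLC6A17 and SLC38A3). SLC6A5, SLC6A18, SLC7A13 and SLC36A3 were listed at 0 in all 6 libraries. They include carriers that are known from specialised tissues, such as the glycine carrier SLC6A5 of inhibitory neurons. The serotonin carrier SLC6A4, the noradrenaline carrier SLC6A2 and the gut and kidney carriers SLC6A19 and SLC6A20 had at most 0.184 FPKM. SLC7A4, SLC7A14, SLC1A7, SLC38A8, SLC38A11, SLC36A2, SLC6A12, SLC6A13 and SLC6A14 had at most 0.36 FPKM, and SLC6A7 and SLC7A9 at most 0.592 FPKM.

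Carriers outside these families showed no call. Of 23 carriers of amino acids or peptides in other SLC families and lysosomal genes, 15 were tested and 0 were called in any of the 3 comparisons. SLC16A10, which moves aromatic amino acids, came nearest in naive against primed, with a log2 difference of 0.90 (SE 0.22, adjusted p = 0.0539), and was picked out after its values were seen. Of 12 partners and regulators of carrier turnover, 10 were tested and 0 called. NEDD4L, a ubiquitin ligase of membrane carriers, had 16.0 and 24.0 FPKM in female naive lines, 17.2 and 16.4 FPKM in male naive lines, and 8.64 and 12.8 FPKM in primed lines (adjusted p = 0.0904).

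Genes of the response to amino acid shortage, which runs from the kinase GCN2 through the factor ATF4 and induces several carriers, were called at a share near that of all rows. Of 32 tested, EIF2S1 and XPOT were higher in naive than in primed lines and STC2 and DDIT4 lower, 4 genes or 12.5% beside 11.3% of all rows, and the median log2 difference was 0.01. DDIT4, a brake on mTORC1, had 11.8 and 8.22 FPKM in female naive lines, 14.5 and 15.8 FPKM in male naive lines, and 49.6 and 85.0 FPKM in primed lines, a log2 difference of -2.32 (SE 0.25, adjusted p = 0.00968). Within males PSAT1 was higher in naive lines and DDIT4 lower. Between the naive groups 2 of the 32 genes, STC2 and PSAT1, were called, both lower in female lines. Over all rows 3.31% were called there, 2.55% lower. The log2 differences were -1.72 (SE 0.23, adjusted p = 0.0186) for STC2 and -1.46 (SE 0.11, adjusted p = 0.00345) for PSAT1. The median of the 32 was -0.37, beside -0.10 for all rows. ASNS, another ATF4 target, differed there by -0.61 (SE 0.13) and ATF4 itself by -0.37 (SE 0.30), neither called. None of the 26 tested genes of amino acid sensing by mTORC1 was called in any comparison.

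Enzymes that use these amino acids were read beside the same 11.3% of all rows, 6.72% called higher and 4.59% lower. Of 16 tested genes of glutamine, glutamate and glutathione metabolism, GCLC, which makes the first step of glutathione synthesis, and PPAT, which spends glutamine on purines, were higher in naive lines, with log2 differences of 1.02 (SE 0.19, adjusted p = 0.0263) and 0.69 (SE 0.12, adjusted p = 0.0244). GLUL, glutamine synthetase, and GGT7 were lower, at -0.50 (SE 0.10, adjusted p = 0.0336) and -1.16 (SE 0.16, adjusted p = 0.0143). Within males PPAT was the single call, higher in naive lines. GLUL had 55.7 and 56.0 FPKM in female naive lines, 61.7 and 63.5 FPKM in male naive lines, and 87.5 and 80.7 FPKM in primed lines, with no overlap. Of 16 tested genes that break down threonine, glycine, methionine, arginine or branched-chain amino acids, GLDC of the glycine cleavage system and ODC1, which makes polyamines, were lower in naive than in primed lines, 2 genes or 12.5%. ODC1 was also lower in female than in male naive lines, by -1.75 (SE 0.19, adjusted p = 0.00897), at 122 and 95.7 FPKM in female naive lines, 343 and 390 FPKM in male naive lines, and 442 and 342 FPKM in primed lines.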

How the data were processed

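Total RNA of 6 iPSC lines was sequenced. The submitters' processing notes name TopHat 1.3.0 as aligner; quantifier, genome build and annotation are not stated there or elsewhere in the sources used here. The authors deposited FPKM per gene, each with a status and with bounds on either side, per the file headers. The fragments behind a value were worked out from its bounds, as (2 × FPKM / (upper bound − FPKM)) squared, on the reading that bounds lie 2 SD away. Rows at 1 FPKM or more in at least 2 libraries with no failed status were tested on log2(FPKM + 1) with limma 3.58.1 (R 4.3.3) in 3 group means with 3 residual degrees of freedom and a trended prior variance. The pseudocount of 1 understates changes of low genes. Naive against primed is the mean of both naive group means minus the primed mean. Tests were two-sided, adjusted by Benjamini-Hochberg over all 13685 tested rows and called at 0.05. No scaling between libraries was added. Intervals are 95% limits from the same fit. The fit was tested on simulated data.

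All 59 gene symbols come from the files; 54 identifiers were in a table of gene names and 53 had the same name there, the exception being SLC6A14. Genes named are those called, the 12 most abundant and 12 carriers listed by name; SLC6A9, SLC6A11, SLC6A15, SLC7A7, SLC38A4, SLC43A3 and other members shown beside them were chosen after their values were seen. Members and lists were chosen with earlier results of these data known. Same-numbered lines did not deviate together, with correlations of -0.263 to -0.05 between groups. Alternatives covered pseudocount, filter, scaling, row length, prior, weights, groups, failed rows and leaving out libraries. The values of 1 gene among those under the filter are not reported here.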

Additional observations from a re-analysis of the deposited data

Results flagged for a closer look

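SLC1A4, the exchanger of alanine, serine and cysteine, differed between the naive groups, which share 1 medium: female minus male naive, its log2 difference was -3.03 (SE 0.35, adjusted p = 0.0114 with limma). Both female naive lines, at 1.49 and 1.37 FPKM, were below both male naive lines, at 15.8 and 22.4 FPKM, a fold of 0.0749. As each naive group is 2 lines of 1 sex, sex, donor and line cannot be told apart. With 2 lines in each group, no test for an outlying line within a group was possible.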

How the results depend on the processing

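Over all tested rows, naive against primed, 1548 calls became 941 with no filter, 250 with sex ignored, 625 without both male naive libraries and 177 to 1081 with 1 library left out. Male naive against male primed, 738 calls became 400 with no filter, 464 without rows under 1500 bp, 348 with the compared groups alone and 51 to 626 with 1 library left out. Female against male naive, 453 calls became 268 with no filter, 183 without rows under 1500 bp and 41 to 523 with 1 library left out. Titles number the lines 1 and 2 in each group; with that number as a replicate block the 3 counts were 812, 373 and 207. Naive against primed, the count of 5 transporter genes became 2 with no filter, 3 with no trend, 1 with sex ignored (SLC7A6), 1 without both male naive libraries (SLC1A4), 1 with the replicate block (SLC7A6), and 0 to 5 with 1 library left out. The 5 without primed line 2 were SLC1A4, SLC7A6, SLC7A8, SLC6A9 and SLC7A11, so SLC7A5 and SLC6A6 were lost there. The counts of 1 gene within males and between naive groups became 0 to 2 each with 1 library left out, and 2 between naive groups with those groups alone, where SLC7A11 joined SLC1A4. Fewer libraries leave fewer degrees of freedom; other causes were not tested. Naive against primed, and with direction kept in all 21 alternatives, SLC7A6 stayed called in 16, SLC1A4 in 13, SLC6A6 in 12, and SLC7A5 and SLC7A8 in 9 each. A pseudocount of 5 brought SLC1A4 to -1.89 between naive groups and -1.03 against primed lines, and SLC7A8 to 0.71. Upper-quartile scaling moved the median of all rows to -0.06 from 0.09 within males and to 0.01 from -0.10 between naive groups. Among uncalled differences the sign turned as follows, the cause not tested. Naive against primed, upper-quartile scaling gave SLC38A10 -0.04, SLC6A8 -0.03 and SLC7A1 -0.0036, and quantile normalization gave -0.01, -0.05 and -0.00601. Without both male naive libraries SLC38A10 was -0.30 and SLC7A1 -0.10. With 1 library left out in turn, SLC36A4 ranged from -0.04 to 0.50, SLC43A2 from -0.03 to 0.52, SLC7A1 from -0.37 to 0.57 and SLC7A11 from -1.24 to 0.37. Of these, SLC36A4 was below 0 without female naive line 1 (-0.04) and without primed line 1 (-0.02), SLC43A2 without primed line 1, and SLC7A1 without female naive line 2 (-0.03) and primed line 2; SLC7A11 was above 0 without primed line 1. Within males SLC1A4 ranged from -0.57 to 0.40, with 0.15 without male naive line 1, and SLC7A1 from -0.18 to 0.77. Between naive groups SLC3A2 and SLC7A6 were 0.04 and 0.02 with upper-quartile scaling, 0.06 and 0.02 with quantile normalization, and 0.07 and 0.04 with median-of-ratios scaling. There, with 1 library left out, SLC3A2 ranged from -0.25 to 0.08, SLC7A6 from -0.30 to 0.09, SLC1A5 from -0.61 to 0.10, SLC36A4 from -0.76 to 0.32, SLC7A3 from -0.08 to 0.53 and SLC7A5 from -0.19 to 0.49. Genes near or under 1 FPKM can rest on few fragments: SLC6A3 had 2 and 1 in male naive libraries and 1 and 2 in primed libraries.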

Other observations

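Some carriers were too low to be tested but differed in level between groups; they were picked out after their values were seen. SLC6A3, the dopamine carrier, had 0.686 and 1.29 FPKM in female naive lines, 0.194 and 0.115 FPKM in male naive lines, and 0.0172 and 0.0439 FPKM in primed lines. SLC6A17, a vesicular carrier of neutral amino acids in neurons, had 0.929 and 1.04 FPKM in female naive lines, 0.520 and 0.205 FPKM in male naive lines, and 0.0614 and 0.157 FPKM in primed lines. In both, each naive line was above both primed lines, as in 18.9% of all tested rows, but the deposited bounds of the male naive and primed values overlapped. For SLC6A17 only 3 and 1 fragments stood behind the male naive values and 2 and 4 behind the primed values. SLC38A3, a glutamine carrier of liver and brain, had 1.95 and 0.600 FPKM in female naive lines, 0.154 and 0.183 FPKM in male naive lines, and 0.109 and 0.244 FPKM in primed lines. For SLC38A3 the female naive lines were highest, while male naive and primed lines overlapped, with 1 and 1 fragments behind the male naive values.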
